A study of Mus musculus with 9 samples.

Results

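A set of 10 mRNAs of the hypoxia-inducible factor (HIF) pathway were followed in mouse CD4+ T cells during activation in the presence or absence of macrophage exosomes. They were taken by name from the deposited count table, and all 10 were among the 55536 identifiers in it and among the 14684 genes that passed the filter on low counts. HIF-1 alpha and its oxygen sensing machinery account for 4 (Hif1a, Vhl, Egln1 and Egln3). The other 6 are HIF targets outside glycolysis (Ak4, Bnip3, Ddit4, P4ha1, Vegfa and Mxi1). The CD4+ T cells, which are helper lymphocytes, came from the spleens of male mice of WT genotype aged 6 to 12 weeks. All 9 cultures were stimulated for 18 h with bead-bound anti-CD3 and anti-CD28, a mimic of antigen and costimulation, and with murine IL-2 at 5 ng/mL. In 3 cultures exosomes of ApoE deficient mice were added (EKO-BMDM-exo in the labels, EKO_exo here), in 3 exosomes of Wildtype mice (WT-BMDM-exo, WT_exo here), each at 2e+09 particles/mL, and 3 received PBS without exosomes. The ApoE deficiency lies in the mice that the exosomes came from and not in the T cells, and BMDM usually stands for macrophages grown from bone marrow. No label names a low oxygen condition, and the study calls its replicates biological but no label ties those of a group to different mice, so the spread behind each p-value is that between these cultures, which may be technical.

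HIF-1 is a transcription factor made of an oxygen-regulated alpha subunit and a stable beta subunit. When oxygen is present, prolyl hydroxylases of the EGLN family modify the alpha subunit, the VHL ubiquitin ligase binds the modified form, and the protein is degraded. In activated T cells the receptor and mTOR signals also raise HIF-1 alpha, and the factor is known for driving glucose uptake and glycolysis there. An mRNA level of Hif1a therefore does not report the amount of its protein. Egln1, Egln3 and the 6 targets are textbook HIF-responsive genes whose mRNA rises in low oxygen.

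HIF binds a short core in DNA, spelled ACGTG or GCGTG. Both spellings were searched on both strands in the RefSeq promoter windows of build GRCm38.p6, which run from 250 bases before to 50 bases after a transcript start. The opposite strand of each core reads CACGT or CACGC, and a CACGTG holds ACGTG on both strands, which counts as 2 cores. The following stretches belong to the members whose exosome and PBS libraries did not overlap in at least 1 comparison, together with Ddit4, which overlapped. Egln1, Vegfa and Mxi1 also overlapped PBS and hold cores in a window, but are not shown. As the stretches were chosen by outcome, they test no link between cores and a change in level. Each stretch is written 5′ to 3′ on the strand of its gene, with 10 bases on either side of the outermost cores and the cores in capitals. The stretches lie at chr12:73907722-73907811 (Hif1a, plus strand), chr12:54204089-54204113 (Egln3, minus), chr4:101419205-101419267 (Ak4, plus), chr7:138909527-138909633 (Bnip3, minus), chr10:59323123-59323294 (P4ha1, plus) and chr10:59951871-59951967 (Ddit4, minus), and none overlaps an annotated exon.
Hif1a: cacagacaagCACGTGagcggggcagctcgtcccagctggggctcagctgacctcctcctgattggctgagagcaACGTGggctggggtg
Egln3: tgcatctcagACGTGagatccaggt
Ak4: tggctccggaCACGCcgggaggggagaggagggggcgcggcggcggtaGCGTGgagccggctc
Bnip3: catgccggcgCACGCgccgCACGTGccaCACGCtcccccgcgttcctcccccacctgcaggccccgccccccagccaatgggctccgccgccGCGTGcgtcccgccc
P4ha1: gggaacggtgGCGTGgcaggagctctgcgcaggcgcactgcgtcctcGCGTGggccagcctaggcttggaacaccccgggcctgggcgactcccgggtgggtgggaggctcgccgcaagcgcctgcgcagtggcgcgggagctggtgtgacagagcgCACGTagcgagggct
Ddit4: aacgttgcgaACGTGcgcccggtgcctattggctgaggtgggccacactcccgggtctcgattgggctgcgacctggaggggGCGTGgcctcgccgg

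Bnip3 had 5 cores in its window, P4ha1 and Hif1a had 3 each, Egln1 and Ddit4 had 2 each, and Egln3 had 1. Ak4 has 4 windows, with 2, 2, 2 and 3 cores; the 2 cores of its first 3 windows are those in the stretch shown, and that of the remaining window, which holds a CACGTG, lies in an annotated exon and is not shown. A core stood in a window of 9 of the 10 members, Vhl being the exception, and in 13 of their 16 windows (81.2%). The core is short and common, since 43.8% of all 32851 windows and 61.5% of the 12762 windows of tested genes held it. Counted by gene, 67.4% of the 10019 tested genes with a window had at least 1 core. The members' windows were also richer in CpG than most, with a median of 25.5 CpG per window against 20 in tested genes and 7.0 in all windows, and both core spellings contain a CpG. A match describes the letters only: cores stood in windows of Egln3, Ak4 and Bnip3, which were called in a comparison below, and of Ddit4, P4ha1 and Vegfa, which were not.

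**Figure D1:**
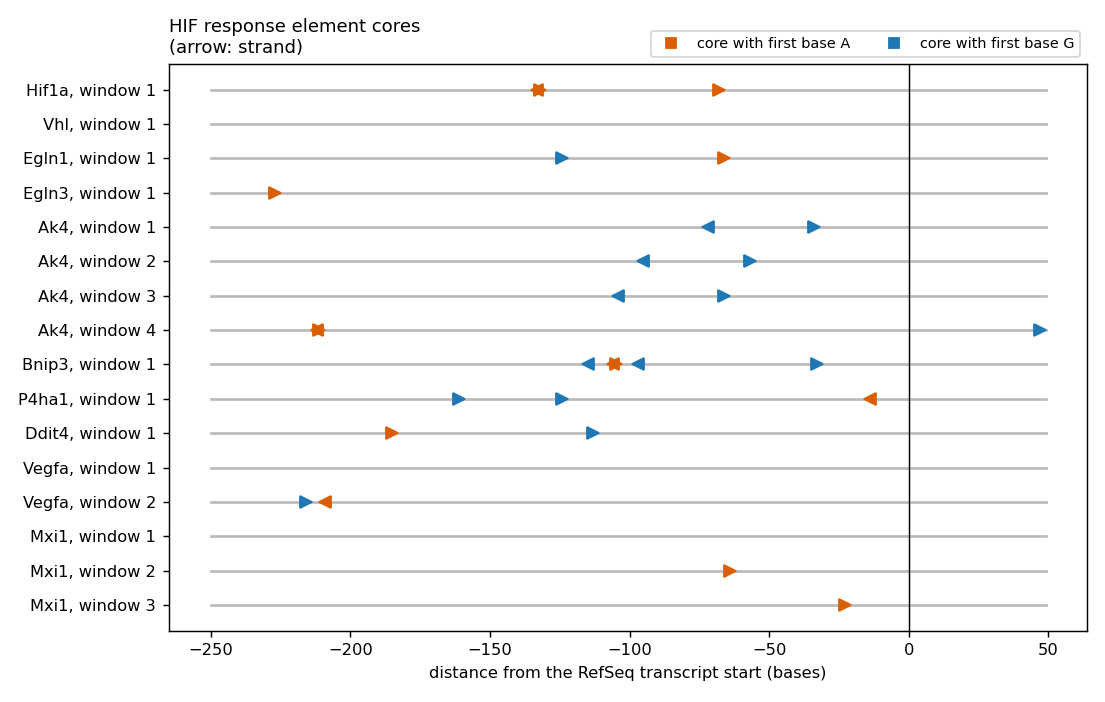
Cores in the RefSeq promoter windows of the 10 members, plotted by distance in bases from the transcript start, 1 line per window. Orange arrows are cores beginning with A and blue arrows cores beginning with G, the arrow points along the strand, and overlaid arrows mark the 2 strands of a palindromic core. The 3 windows without an arrow belong to Vhl, Vegfa and Mxi1, and the cores of Bnip3 and P4ha1 lie before the start.

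The libraries held 25792975 to 32971791 counts, the mitochondrial share of counts was 2.17 to 2.37%, and the 3 EKO_exo libraries had fewer genes detected (19038 to 19518) than the other 6 (19989 to 20568). By principal components of log2 CPM, EKO_exo replicate 3 lay far from the rest on the first (61.6) and replicate 1 on the second (-54.0), so where a named gene's call in that group was lost without both, this is given. The library then left, EKO_exo replicate 2, was itself the extreme of the third component (36.4). The defining T cell markers were present, with a summed level of 2910 to 3110 CPM over 7 genes. Markers of other cells were low in every library: at most 12.3 CPM for 2 CD8 genes, 8.8 for 6 B cell genes, 29.5 for 7 macrophage and monocyte genes, 11.3 for 4 dendritic cell genes, 8.31 for 4 neutrophil genes, 8.08 for 3 platelet genes and 0.641 for 3 NK cell genes. The erythroid genes Hba-a1 and Hbb-bs and the NK gene Klra8 were at 0 in every library. Among T cell markers Cd3e and Cd5, chosen for mention after their values were seen, were called higher in EKO_exo than in PBS (log2 fold change 0.12 ± 0.034 and 0.11 ± 0.034, SE), each losing its call when any of 8 of the 9 libraries was left out, and without EKO_exo replicates 1 and 3 (0.05 and 0.11 log2, adjusted p = 0.698 and 0.33). Of the 7 macrophage and monocyte genes 4 were tested. With EKO_exo against PBS 2 of these lay above 0 and 2 below, with a median log2 fold change of 0.015. The macrophage marker Csf1r, also named after its values were seen, was at 0.880, 0.648 and 1.082 CPM in PBS and 2.387, 2.518 and 1.926 CPM in EKO_exo. It was called higher there (1.38 ± 0.412 log2, adjusted p = 0.0476), a call lost without any PBS library, WT_exo replicate 1 or 2 or EKO_exo replicate 1 or 2 (up to 0.194), or without EKO_exo replicates 1 and 3 (0.175). Of the 4 neutrophil genes 2 were tested, Mpo and S100a9, and they went opposite ways with WT_exo. Mpo averaged 3.97 CPM in PBS and 5.65 CPM in WT_exo and was not called. The summed neutrophil level was 3.42 to 5.73 CPM in PBS and 4.31 to 8.31 CPM in WT_exo. S100a9, also named after its values were seen, was at 0.0352 to 0.688 CPM in PBS and at 0 counts in all WT_exo libraries. It was called lower there (adjusted p = 0.0407), a call lost without any one of the 6 libraries compared (up to 0.178).

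CPM, a gene's counts scaled to the TMM-corrected library size, compare a gene between libraries, and levels of different genes are compared as CPM per kb of merged exon length. On that length-scaled level in PBS, Hif1a was the highest of the 10 at 142.9 ± 0.948 CPM per kb (SD, n = 3, as for each value here), 34 times the level of Bnip3. Ddit4 followed at 67.15 ± 4.05 CPM per kb, then Egln3 at 53.43 ± 2.59 and Egln1 at 37.85 ± 2.27. P4ha1 was at 24.6 ± 1.62 CPM per kb and Vegfa at 15.65 ± 0.97. The lowest 4 were Vhl (7.783 ± 0.454 CPM per kb), Ak4 (6.763 ± 0.833), Mxi1 (4.366 ± 0.197) and Bnip3 (4.204 ± 0.442). All neighbours in this order were separated in every PBS library except Mxi1 and Bnip3, whose libraries overlapped. The level of Bnip3, with its rank and its ratio to Hif1a, is uncertain, because 6 annotated copies resemble it. How reads that match several genes were counted is not given. In EKO_exo the order of the first 7 was the same, but Egln3 at 40.04 ± 5.80 and Egln1 at 36.98 ± 0.991 CPM per kb overlapped. Ak4 and Mxi1 overlapped in both exosome groups.

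**Figure D2:**
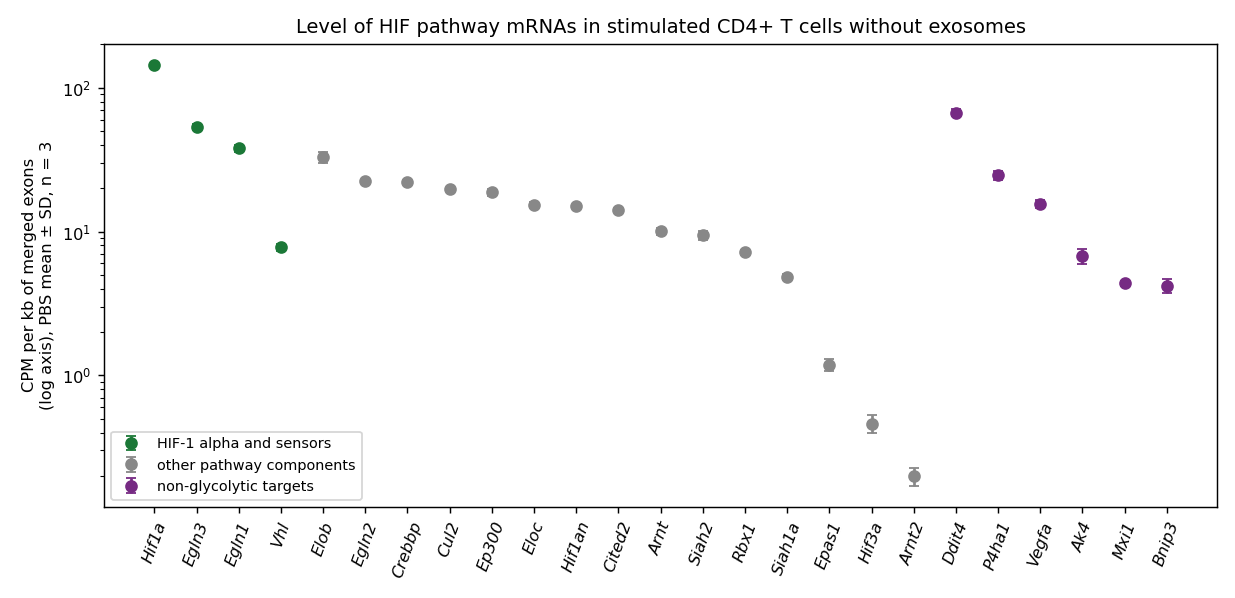
Length-scaled levels of HIF pathway mRNAs in the PBS cultures, as CPM per kb of merged exons on a log axis, with points for the mean and bars for the SD of 3 libraries. Hif1a at 142.9 CPM per kb stands above every other gene drawn, while the alternative alpha subunits Epas1 and Hif3a sit at 1.19 and 0.462 CPM per kb.

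Hif1a (ENSMUSG00000021109, chr12:73901375-73947530, plus strand) was at 836.5, 842.5 and 847.7 CPM in PBS replicates 1, 2 and 3, at 799.5, 765.9 and 808.4 CPM in WT_exo and at 760.2, 779.9 and 817.6 CPM in EKO_exo. Every exosome library lay below every PBS library, and the 2 exosome groups overlapped. The PBS libraries lay close together, with a coefficient of variation of 0.664%, against 2.83% in WT_exo and 3.71% in EKO_exo. The log2 fold change was -0.10 ± 0.030 (SE) for EKO_exo against PBS (adjusted p = 0.0518) and -0.09 ± 0.030 for WT_exo against PBS (adjusted p = 0.0915, edgeR quasi-likelihood test, Benjamini-Hochberg over all genes, as for each adjusted p here). Neither passed the threshold of 0.05. The call depended on the setting: it was made in 3 of 16 alternatives for EKO_exo, among them without EKO_exo replicate 3 (adjusted p = 0.0137), and in 5 of 16 for WT_exo, among them without EKO_exo replicates 1 and 3 (0.0333). Over the alternatives the highest adjusted p were 0.203 and 0.4. The antisense gene Gm15283 shares 330 exon bases with Hif1a and had 413 counts over the 9 libraries; without a stated strand setting, reads of the pair cannot be told apart there.

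Egln3 encodes the prolyl hydroxylase PHD3 and is itself strongly induced by HIF (ENSMUSG00000035105, chr12:54178981-54203860, minus strand). It was at 140.5, 149.8 and 136.4 CPM in PBS, at 105.9, 117.6 and 112.6 CPM in WT_exo and at 91.2, 122.1 and 106.5 CPM in EKO_exo. All 6 exosome libraries were below all 3 PBS libraries, and the WT_exo range lay inside that of EKO_exo. Egln3 fell by 0.42 ± 0.068 on the log2 scale with EKO_exo (a ratio of 0.749, adjusted p = 0.000252) and by 0.34 ± 0.068 with WT_exo (ratio 0.788, adjusted p = 0.00163). Without EKO_exo replicates 1 and 3, the first change was -0.22 and its call was lost (adjusted p = 0.119). The libraries left out held the lower 2 values of that group, and replicate 2 the highest. In bulk RNA, fewer cells expressing a gene and less of its RNA per cell cannot be told apart, here or for any gene below.

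Egln1, encoding PHD2, the main HIF hydroxylase in most cells (ENSMUSG00000031987, chr8:124908587-124949324, minus strand), was at 144.6, 135.3 and 128.3 CPM in PBS, at 130.7, 131.8 and 127.8 CPM in WT_exo and at 128.9, 134 and 135.8 CPM in EKO_exo. The 3 groups overlapped, and the log2 fold changes against PBS were -0.03 ± 0.048 (adjusted p = 0.806) and -0.06 ± 0.048 (adjusted p = 0.59) for EKO_exo and WT_exo. Within a library the CPM of Egln3 divided by that of Egln1, a ratio not scaled by length and used only between libraries, was 0.972, 1.11 and 1.06 in PBS. It was 0.811, 0.892 and 0.881 in WT_exo and 0.707, 0.911 and 0.784 in EKO_exo, so that the ratio in each exosome library was below that in each PBS library.

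Vhl, the substrate-binding part of the ligase that removes hydroxylated HIF alpha (ENSMUSG00000033933, chr6:113623959-113631633, plus strand), was at 24.86, 22.27 and 22.84 CPM in PBS. Its levels were 20.24, 21.06 and 24.97 CPM in WT_exo and 21.77, 23.94 and 22.82 CPM in EKO_exo. The groups overlapped and no difference was called: -0.03 ± 0.101 log2 for EKO_exo (adjusted p = 0.928) and -0.08 ± 0.101 for WT_exo (adjusted p = 0.819), each against PBS.

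**Figure D3:**
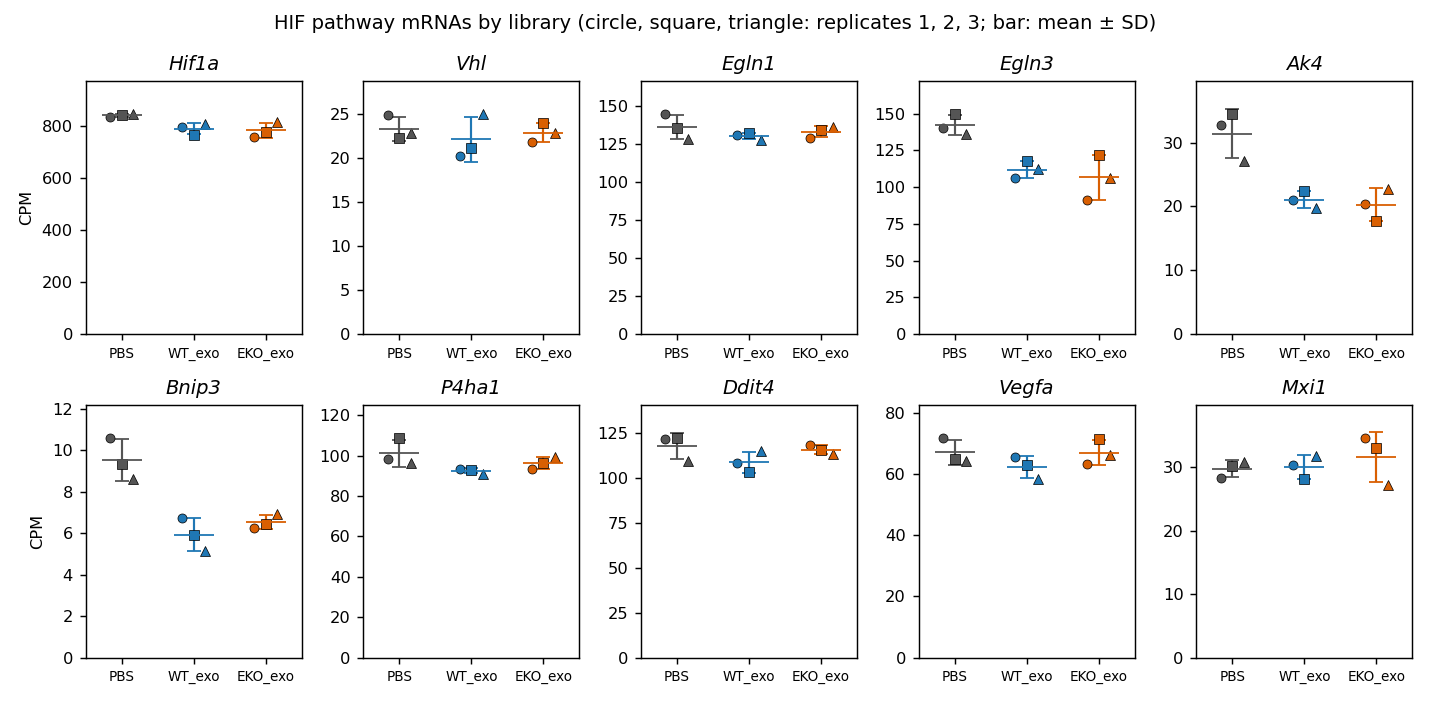
Level of each member in CPM in every library, on linear axes that start at 0, with the 3 groups side by side, a marker shape for each replicate number and bars for the mean and SD of 3 libraries. For Egln3, Ak4 and Bnip3 the blue and orange points lie below all grey PBS points, for Hif1a they do so by a small margin, and for Vhl, Egln1, Ddit4, Vegfa and Mxi1 the 3 groups overlap.

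Ak4, a mitochondrial adenylate kinase, had the lowest ratio of EKO_exo to PBS of the 10 members (ENSMUSG00000028527, chr4:101419277-101466995, plus strand). It was at 32.71, 34.48 and 27.07 CPM in PBS, at 21.05, 22.4 and 19.69 CPM in WT_exo and at 20.38, 17.63 and 22.75 CPM in EKO_exo. No exosome library reached the lowest PBS library, and the 2 exosome groups overlapped. Ak4 fell by 0.63 ± 0.108 log2 with EKO_exo (ratio 0.646, adjusted p = 0.000441) and by 0.58 ± 0.108 with WT_exo (ratio 0.67, adjusted p = 0.000903). Both calls were made in 16 of 16 alternatives, with adjusted p of at most 0.0105 and 0.0198. Its processed pseudogene Ak3l2-ps matches it at 99.6% over 672 bases and held 8 counts, 0.124% of those of Ak4.

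Bnip3 encodes a receptor on the outer mitochondrial membrane that marks mitochondria for autophagy (ENSMUSG00000078566, chr7:138890836-138909519, minus strand). It was at 10.6, 9.344 and 8.62 CPM in PBS, at 6.727, 5.89 and 5.159 CPM in WT_exo and at 6.27, 6.43 and 6.941 CPM in EKO_exo. The exosome libraries were below the PBS libraries in all 6 cases. Bnip3 fell by 0.68 ± 0.162 log2 with WT_exo (ratio 0.622, adjusted p = 0.01), a call lost without PBS replicate 1 or WT_exo replicate 3 (adjusted p up to 0.0841). For EKO_exo the log2 fold change of -0.54 ± 0.162 (ratio 0.688) had an adjusted p of 0.0503 and was not called. It was called in 2 of 16 alternatives, and DESeq2 gave the lowest adjusted p of these (0.0259). With 1 library left out, it was not called in any of the 9 fits (adjusted p up to 0.237). The gene had 166 to 301 counts per library, and these are uncertain, since 6 annotated copies resemble it at 90% identity or more and the lincRNA AC160336.1 among them, matching at 98.3% over 858 bases, held 135 counts, 6.96% of the count of Bnip3.

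P4ha1 encodes the catalytic alpha subunit of collagen prolyl 4-hydroxylase (ENSMUSG00000019916, chr10:59323296-59373304, plus strand). Its levels were 98.49, 108.8 and 96.33 CPM in PBS, 93.24, 92.97 and 90.91 CPM in WT_exo and 93.09, 96.53 and 99.4 CPM in EKO_exo. All WT_exo libraries lay below all PBS libraries, but the difference of -0.13 ± 0.054 log2 was not called (adjusted p = 0.199). EKO_exo overlapped PBS (-0.07 ± 0.054 log2, adjusted p = 0.567).

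Ddit4, whose product REDD1 restrains mTORC1 (ENSMUSG00000020108, chr10:59949669-59951834, minus strand), was at 121.6, 122.3 and 109.6 CPM in PBS, at 108.2, 103.2 and 114.8 CPM in WT_exo and at 118.2, 115.6 and 113.4 CPM in EKO_exo. Vegfa, the angiogenic growth factor (ENSMUSG00000023951, chr17:46016993-46032369, minus strand), was at 71.84, 64.93 and 64.37 CPM in PBS, at 65.46, 62.97 and 58.38 CPM in WT_exo and at 63.27, 71.35 and 66.26 CPM in EKO_exo. Mxi1, a partner of MAX that opposes MYC (ENSMUSG00000025025, chr19:53310518-53375810, plus strand), was at 28.28, 30.25 and 30.84 CPM in PBS, at 30.43, 28.08 and 31.8 CPM in WT_exo and at 34.66, 32.97 and 27.2 CPM in EKO_exo. In all 3 genes each exosome group overlapped PBS. The log2 fold changes for EKO_exo against PBS were -0.03 ± 0.053 for Ddit4, -0.0020 ± 0.067 for Vegfa and 0.08 ± 0.094 for Mxi1, with adjusted p of 0.877, 0.994 and 0.73. For WT_exo against PBS they were -0.12 ± 0.053, -0.11 ± 0.067 and 0.02 ± 0.094, with adjusted p of 0.271, 0.49 and 0.971.

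Counted together for EKO_exo against PBS, 2 of the 10 members were called lower, 0 higher and 8 were not called, with 4 whose groups did not overlap, all lower. Over all tested genes 2.87% were called lower and 2.21% higher, while 10.6% were lower and 9.94% higher without overlap. The members' median log2 fold change was -0.05, and that of all tested genes 3.78e-05. For WT_exo against PBS, 3 members were called lower and 0 higher, and 5 lay lower without overlap, beside 3.14% called lower, 1.83% called higher, 11.6% lower without overlap and 10.6% higher without overlap among all genes. Here the members' median was -0.11 and that of all genes 0.0031. The PBS cultures are the same in both comparisons, so the fold changes share their errors and a member below 0 in both is not seen independently in each.

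Split by role, 1 of the 4 genes for HIF-1 alpha and its sensors was called lower in each comparison with PBS, with medians of -0.07 for EKO_exo and -0.08 for WT_exo. Of the 6 targets 1 was called lower with EKO_exo (median -0.05) and 2 with WT_exo (median -0.12). The targets' mean log2 level relative to the PBS mean was -0.216, -0.274 and -0.304 in WT_exo and -0.197, -0.206 and -0.188 in EKO_exo, with PBS between -0.0869 and 0.0437. For the sensor group it was -0.189, -0.15 and -0.096 in WT_exo and -0.24, -0.0778 and -0.123 in EKO_exo, with PBS between -0.0402 and 0.039. The mean of each set lay below PBS in every exosome library, but not all members did. In the sensor set Egln3 was the member farthest below 0 and in the target set Ak4 and Bnip3 were. Hif1a lay below PBS by a small margin, and P4ha1 was below all PBS libraries only with WT_exo. Vhl, Egln1, Ddit4, Vegfa and Mxi1 overlapped PBS in both exosome groups, so the means do not describe a fall shared by each set.

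**Figure D4:**
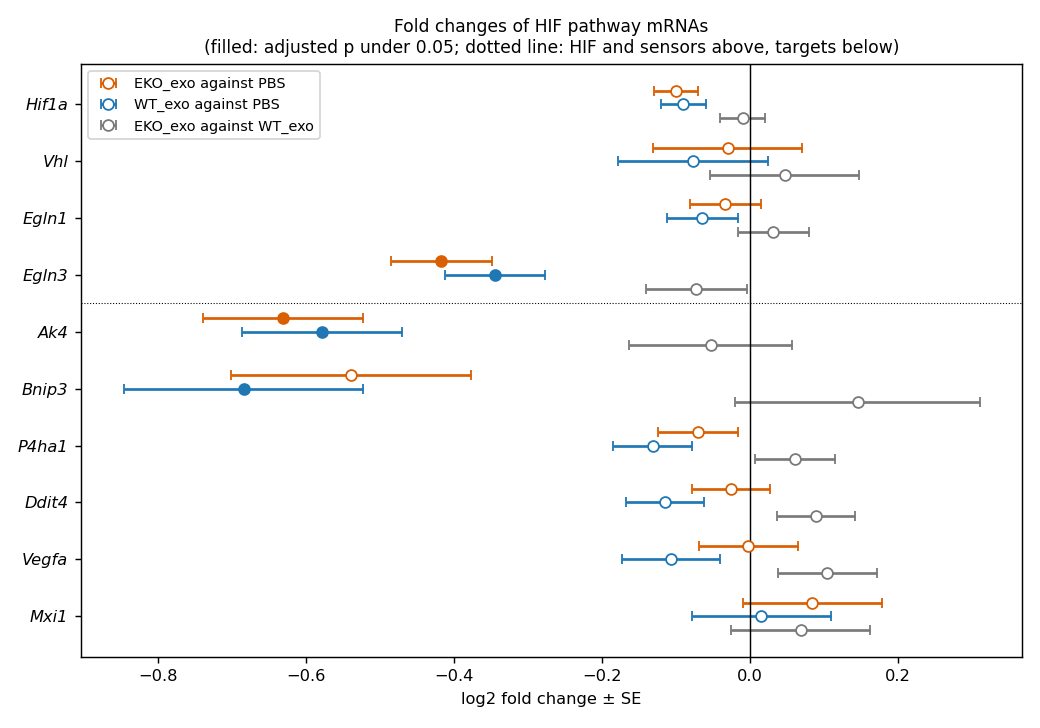
Log2 fold changes of the 10 members with bars for the SE, in orange for EKO_exo against PBS, blue for WT_exo against PBS and grey for EKO_exo against WT_exo, filled where the adjusted p was under 0.05. Filled points appear for Egln3 and Ak4 in both comparisons with PBS and for Bnip3 with WT_exo, and no grey point is filled.

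Set directly against each other, the 2 kinds of exosomes gave no called difference in any member: 0 of 10 were called by edgeR, and 0 had an unadjusted p under 0.05. DESeq2, which gave an adjusted p to 6 of the 10 here, called 0 of those 6. Across all tested genes 0.0272% were called higher and 0.00681% lower in EKO_exo than in WT_exo, and 5.88% and 5.97% were higher and lower without overlap, which held for 0 of the 10 members. The estimates ran from -0.07 log2 for Egln3 to 0.15 for Bnip3, with a median of 0.05. The 95% interval of the difference was -0.21 to 0.07 for Egln3, -0.28 to 0.17 for Ak4, -0.19 to 0.48 for Bnip3 and -0.07 to 0.05 for Hif1a. A p above the threshold does not show that the exosomes acted alike, and the interval of Bnip3 was the widest of the 10.

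Over the 9 libraries, Ak4 and Bnip3 followed each other most closely of the 45 member pairs (Pearson r of log2 CPM 0.887), then Egln1 and Vegfa (0.768), Egln3 and Ak4 (0.754), and Hif1a and Ak4 (0.753). Egln1 and Mxi1 were the most opposed (-0.555). The genes of at least 5 CPM most like Hif1a were Gart, Zbtb8a and Ing1 (r = 0.981, 0.964 and 0.952). Those most like Egln3 were Nucks1, Ybx3 and Mrpl40 (0.979, 0.975 and 0.972), those most like Ak4 were Sass6, Btbd11 and Taf1 (0.973, 0.971 and 0.968), and those most like Bnip3 were Slbp, Hnrnpab and Smc2 (0.973, 0.968 and 0.965). These are descriptions over 9 points that share their groups and depth, taken as the highest of 9562 genes.

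Other components of the HIF pathway were mostly not called. Of 15 (the other alpha and beta subunits, the hydroxylases Egln2 and Hif1an, ligase subunits, coactivators and their competitor), 2 were called higher with EKO_exo and 0 with WT_exo (2 higher and 2 lower at an unadjusted p under 0.05, and 0 by DESeq2 among the 13 it gave an adjusted p), and the median log2 fold change was 0.03 in both. Cited2, which competes with HIF-1 alpha for its coactivators, was at 33.31, 35.71 and 35 CPM in PBS, 40.46, 36.85 and 42.76 CPM in WT_exo and 47.74, 42.49 and 45.9 CPM in EKO_exo. Neither exosome group overlapped PBS, and Cited2 rose by 0.39 ± 0.079 log2 with EKO_exo (adjusted p = 0.0026, 0.241 without EKO_exo replicates 1 and 3), while the value with WT_exo was 0.21 ± 0.079 (adjusted p = 0.158). Crebbp, the coactivator CBP, rose by 0.14 ± 0.038 log2 with EKO_exo (adjusted p = 0.0305), a call lost without PBS replicate 1, PBS replicate 2, EKO_exo replicate 1 or EKO_exo replicate 3 (up to 0.178). Without both of these EKO_exo libraries the value was 0.064 log2 (adjusted p = 0.654).

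Of 23 further hypoxia response genes outside glycolysis, 20 were tested; Adm, Lox and Epo stayed below the filter. With EKO_exo 1 was called lower and 0 higher, with WT_exo likewise, and 16 of the 20 lay below 0 in each, with medians of -0.15 and -0.13. Car12, a carbonic anhydrase of the cell surface, was at 29.05, 28.54 and 26.55 CPM in PBS and 23.37, 22.58 and 21.92 CPM in EKO_exo. It fell by 0.31 ± 0.092 log2 (adjusted p = 0.0459), a call lost when any one of the 9 libraries was left out (up to 0.184) and without EKO_exo replicates 1 and 3 (0.314). In WT_exo it was at 26.32, 25.65 and 23.67 CPM, also below every PBS library, and not called (adjusted p = 0.452). P4ha2, a second collagen prolyl hydroxylase subunit, was at 3.662, 4.706 and 4.392 CPM in PBS and 2.037, 1.336 and 2.245 CPM in WT_exo. It fell by 1.18 ± 0.301 log2 (adjusted p = 0.0174), lost without PBS replicate 2 or 3 or WT_exo replicate 1 or 2 (up to 0.117). In EKO_exo it was at 2.351, 1.317 and 2.856 CPM, also below every PBS library, and not called (-0.96 ± 0.299 log2, adjusted p = 0.0593).

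The glycolytic HIF targets showed more calls than the non-glycolytic ones, without a test of that contrast: 11 of 19 were lower and 0 higher with EKO_exo, and the same counts held for WT_exo, with medians of -0.23 and -0.21. Slc16a3, the lactate exporter MCT4, was at 75.22, 81.74 and 72.01 CPM in PBS, 48.19, 45.03 and 47.97 CPM in WT_exo and 40.26, 43.58 and 47.83 CPM in EKO_exo. Both exosome groups lay far below PBS, and the fall was 0.80 ± 0.072 log2 with EKO_exo (adjusted p = 4.49e-08) and 0.70 ± 0.072 with WT_exo (adjusted p = 2.62e-07). The glycolytic enzymes Tpi1 (fell by 0.39 ± 0.040 and 0.40 ± 0.040 log2) and Pkm (fell by 0.24 ± 0.028 and 0.26 ± 0.028), were also called in both, with adjusted p of at most 4.21e-06. Without EKO_exo replicates 1 and 3, 7 of the 19 were called lower with EKO_exo.

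**Figure D5:**
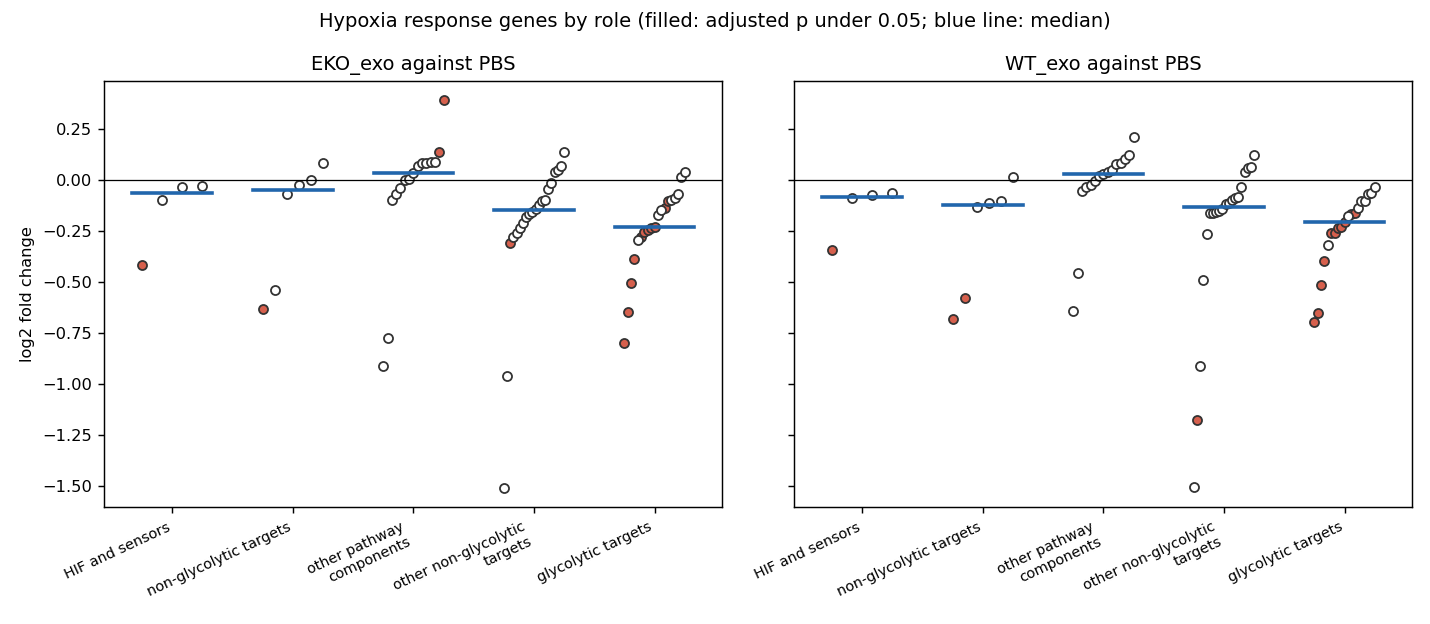
Log2 fold change of each tested gene by role, for EKO_exo against PBS on the left and WT_exo against PBS on the right, 1 circle per gene, filled where the adjusted p was under 0.05, with a blue line at the median of each list. The glycolytic targets hold 11 filled circles below 0 on each side and the other pathway components hold 2 above 0 on the left, while the 2 non-glycolytic lists together hold 2 filled circles on the left and 3 on the right, all below 0.

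Beside Bnip3, 2 of 9 mitophagy genes were called higher with EKO_exo and 1 with WT_exo, and 0 lower. Pink1, the kinase that flags damaged mitochondria, was at 39.51, 38.88 and 37 CPM in PBS, 44.82, 47.15 and 49.43 CPM in WT_exo and 45.67, 49.23 and 44.8 CPM in EKO_exo. Both exosome groups were above PBS in every library, and Pink1 rose by 0.28 ± 0.074 log2 with EKO_exo (adjusted p = 0.0247, lost without any PBS library or EKO_exo replicate 2, up to 0.108, and 0.0694 without EKO_exo replicates 1 and 3) and by 0.29 ± 0.073 with WT_exo (adjusted p = 0.015, lost without PBS replicate 2 or 3 or WT_exo replicate 2 or 3, up to 0.109). Ulk1, a kinase that starts autophagy, rose by 0.24 ± 0.061 with EKO_exo (adjusted p = 0.0172, lost without PBS replicate 1 or 2 or EKO_exo replicate 1, up to 0.107, and 0.397 without EKO_exo replicates 1 and 3). Bnip3l, the close relative of Bnip3, was not called (-0.14 ± 0.079 and -0.03 ± 0.078 log2).

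Beside Mxi1, 4 of 10 genes of the MYC and MAX network were called higher with EKO_exo and 2 with WT_exo, with medians of 0.12 and 0.11 and 0 called lower. Mxd4, like Mxi1 a repressor that pairs with MAX, was at 34.65, 38.43 and 34.68 CPM in PBS, 47.83, 40.41 and 49.67 CPM in WT_exo and 55.65, 43.46 and 49.12 CPM in EKO_exo. It rose by 0.46 ± 0.090 log2 with EKO_exo (adjusted p = 0.00162, 0.305 without EKO_exo replicates 1 and 3) and by 0.36 ± 0.090 with WT_exo (adjusted p = 0.0155, lost without PBS replicate 1 or 3 or WT_exo replicate 1 or 3, up to 0.132). Max rose by 0.18 ± 0.037 log2 with EKO_exo (adjusted p = 0.0026, 0.207 without EKO_exo replicates 1 and 3). Myc rose by 0.14 ± 0.032 with EKO_exo (adjusted p = 0.00891, lost without PBS replicate 3 or EKO_exo replicate 2, up to 0.0745) and by 0.12 ± 0.032 with WT_exo (adjusted p = 0.0228, lost without PBS replicate 1 or 3 or WT_exo replicate 1 or 2, up to 0.152). The remaining call was Mnt, named after its values were seen, at 0.22 ± 0.057 log2 with EKO_exo (adjusted p = 0.0203, lost without PBS replicate 1 or 2 or EKO_exo replicate 3, up to 0.11, and 0.371 without EKO_exo replicates 1 and 3).

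Beside P4ha1, 1 of 7 collagen hydroxylase genes was called lower with EKO_exo and 2 with WT_exo. P4hb, the beta subunit that pairs with P4ha1, was at 470.8, 454.1 and 443.2 CPM in PBS, 401.4, 387.3 and 410.4 CPM in WT_exo and 407.6, 406 and 398.9 CPM in EKO_exo. All exosome libraries were below all PBS libraries, and P4hb fell by 0.17 ± 0.034 log2 with EKO_exo (adjusted p = 0.00153, 0.0572 without EKO_exo replicates 1 and 3) and by 0.19 ± 0.034 with WT_exo (adjusted p = 0.000573). The other call with WT_exo was P4ha2, described above. Neither the 5 tested relatives and receptors of Vegfa nor the 11 tested restraints on mTORC1 beside Ddit4 had a call in either comparison with PBS by edgeR. At an unadjusted p under 0.05 stood 1 of the Vegfa relatives in each comparison and 2 and 3 of the mTORC1 restraints with EKO_exo and WT_exo, of which DESeq2 called 1 with WT_exo. In each comparison it called 0 of the 3 Vegfa relatives to which it gave an adjusted p. Between EKO_exo and WT_exo 0 of the 92 genes of these 8 lists were called by edgeR, and 5 were higher and 2 lower at an unadjusted p under 0.05. DESeq2 called 0 of the 39 to which it gave an adjusted p, and it gave none to the Vegfa relatives.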

How the data were processed

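Messenger RNA of 9 cultures was sequenced, and the authors deposited the raw count of each gene, in whole numbers. RNA was taken with the Qiagen RNeasy Mini kit and libraries were made with the Universal Plus mRNA-Seq kit, per the labels' protocols. Reads were aligned with STAR 2.7.5c to GRCm38, per the submitters' processing notes. The counter, with its strand setting, annotation and treatment of reads that match several genes, is not given in the sources used here. Groups came from the treatment labels. Symbols, coordinates and merged exon lengths were looked up in GENCODE M21 (GRCm38) for 55450 of 55536 identifiers, and 166 of 167 listed symbols matched 1 identifier. Aldoa matched more than 1 and was left out.

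Tests ran in edgeR 4.0.16 (R 4.3.3). Genes were filtered by filterByExpr (minimum count 10, minimum total 15), which kept 14684 genes and at least 99.92% of each library's counts. Libraries were scaled by TMM, all 9 entered 1 model of 3 groups without covariates (6 residual and 21.1 prior degrees of freedom), and groups were compared by the quasi-likelihood F test with Benjamini-Hochberg adjustment over all genes. No pair of libraries within a group looked like 1 library deposited again (chi-square per degree of freedom 5.21 to 9.52). The scripts were tested on simulated counts. Alternatives were DESeq2 1.42.0, relative log expression scaling, other filters, a replicate block, 2-group fits and leaving out libraries.

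The members and the gene lists were chosen with earlier results of these data known, so their counts are descriptions. Named beside the members were up to 3 called genes of smallest p per list and comparison and, by correlation of log2 CPM, the 3 genes most like Hif1a and each called member; exceptions are marked, and a few results are not reported here. Copies of the members were searched for among annotated transcripts, at 90% identity or more over at least 200 bases.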

Additional observations from a re-analysis of the deposited data

How the results depend on the processing

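Of the calls in members, those of Ak4 against PBS held in all 16 alternatives for both exosome groups, and that of Egln3 in 16 for WT_exo and 15 for EKO_exo. The count of members called lower with EKO_exo (2) became 4 with DESeq2, 4 when only genes of at least 5 mean CPM were kept and 1 without EKO_exo replicates 1 and 3. It was 2 to 3 when 1 library was left out, and 2 to 4 for WT_exo. Among all genes, calls with EKO_exo against PBS became 538 higher with DESeq2, and 84 higher and 165 lower without EKO_exo replicates 1 and 3. WT_exo against PBS gave 413 higher genes with DESeq2 and 436 when fitted on those groups alone. EKO_exo against WT_exo gave 23 higher and 9 lower with DESeq2, 24 and 4 with no filter on low counts, 7 and 2 with the 5 CPM filter, and 0 and 0 without EKO_exo replicates 1 and 3, where the members' median was 0.10. Leaving out 1 library gave 148 to 293 higher and 227 to 400 lower genes for EKO_exo against PBS, 129 to 337 and 269 to 533 for WT_exo against PBS, and 0 to 5 and 0 to 2 between the exosome groups. The members' median for WT_exo against PBS then ran from -0.15 to -0.094.

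Among members, signs turned only in differences that were not called. For EKO_exo against PBS, Vegfa was 0.0011 with relative log expression scaling, 0.0011 with DESeq2 and 0.090 without EKO_exo replicates 1 and 3, where Vhl was 0.037. Between the exosome groups Egln3 was then 0.12. With 1 library left out, EKO_exo against PBS ran from -0.079 to 0.0013 for Ddit4, -0.077 to 0.012 for Egln1, -0.052 to 0.050 for Vegfa and -0.068 to 0.017 for Vhl, and WT_exo against PBS from -0.027 to 0.062 for Mxi1. EKO_exo against WT_exo ran from -0.013 to 0.145 for Vhl, -0.040 to 0.014 for Hif1a, -0.18 to 0.028 for Egln3, -0.0037 to 0.17 for Mxi1 and -0.15 to 0.035 for Ak4. The causes were not tested. Where EKO_exo was left with 1 library, that library was assumed to vary like those of the other groups.

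Libraries of different groups with the same replicate number did not deviate together over all genes (r from -0.0203 to 0.0236 over pairs). Pairs with different numbers ran from -0.026 to 0.0247. No pairing by number was seen, but these r cannot exclude that equal numbers shared a mouse or a day. With a replicate block, 256 genes were higher and 358 lower for EKO_exo against PBS, 1 and 0 for EKO_exo against WT_exo, and each member kept its call or lack of one in all 3 comparisons. Depth limits Bnip3 most, at 166 to 301 counts per library.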
